A study of Rattus norvegicus with 3 samples.

Results

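The genes of cytokines, chemokines, complement and leukocyte antigens were followed in the kidney inner medulla of lithium-treated rats. They were picked out by gene symbol: the interleukin, chemokine, tumour necrosis factor, interferon, granzyme, CD antigen and C1q prefixes, the RT1 histocompatibility genes, and C3, C4a and Cfd. This gave 131 genes with 152 probes, of 4390 named genes with 5064 probes on the array. C4a itself was not among the genes found, and the symbol rule also took in C1qbp, a mitochondrial protein that binds C1q, and several CD antigens that epithelia carry too. Symbols, not ratios, decided which 131 genes belong, although the family was taken up with earlier results of these data known. Many of those named below were picked for high or low ratios.

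RNA of the inner medulla, the innermost kidney zone, where the collecting ducts concentrate the urine, was taken from rats given lithium (Li) for 1 month and from control rats. Lithium causes nephrogenic diabetes insipidus (NDI), a failure of the collecting duct to respond to vasopressin, and the study asked which transcripts differ in this state. Each of 3 two-colour arrays held RNA of Li-treated rats in red and RNA of control rats in green, with pools of 2 rats per channel on arrays 1 and 2 and 1 rat per channel on array 3. The sources used here give no strain, sex, age or lithium dose, and whole tissue RNA mixes all cell types of the zone.

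Cytokines and chemokines are the secreted signals by which cells of a tissue call and instruct leukocytes. Their receptors, the CD antigens and the histocompatibility molecules sit on the surface of those leukocytes and of the tissue's own cells. Complement proteins tag material for removal. A healthy inner medulla holds resident macrophages and few lymphocytes among its tubules, vessels and interstitial cells, and its epithelium makes some chemokines and complement proteins itself.

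The value of a gene on an array is a log ratio, from which the array's median over all probes was subtracted and over which the probes of a gene were averaged. A positive ratio was read as higher in Li-treated medulla. That reading is likely, because the labels put lithium RNA in channel 1, but the deposited table states neither the direction nor the log base, so a fold is given for base 10 and for base 2, and the opposite reading would turn every sign below. All arrays had lithium RNA in red, so a dye effect and the treatment cannot be told apart. A ratio does not show how strongly a gene is expressed, and in whole tissue fewer cells of a type and less RNA per cell cannot be told apart.

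No member passed the test. Of the 131 genes, 92 had a value on all 3 arrays and entered the limma fit over 3819 genes and unnamed probes. At a Benjamini-Hochberg adjusted p of 0.05, 0 of the 92 were called, against 17 of all 3819 features (0.445%), 0.236% higher and 0.209% lower, and the smallest adjusted p of a member was 0.0782, that of Gzmc. Other settings of the same limma fit moved this count. It was 1 member, Gzmc, with arrays scaled to the same spread (background 2.57%) and likewise with a robust variance prior (2.46%), and 31 members with estimated array weights (27.6%), where array 1 had a weight of 4.52 against 0.371 and 0.596 for arrays 2 and 3. At an unadjusted limma p of 0.05, 21 of the 92 members passed (22.8%), 12 higher and 9 lower, against a background of 17.2% in either direction, 9.71% higher and 7.52% lower. With ratios as deposited, without centring, 9 members were higher and 16 lower, against 234 higher and 416 lower of the 3819 features. The members' median log ratio was 0.01, and that of all features was 0.0133. Among the 92, 68 lay within 0.1 of 0 (73.9%), against 80.4% of all features. The median SD over arrays was 0.077 for the members and 0.071 for all features.

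The members stayed on 1 side of 0 on all 3 arrays about as often as other features. Above 0 on every array were 20 members, against a background of 24.1%, and below 0 on every array were 17, against 14.6%. Both together made up 40.2% of the 92 members and 38.7% of all features. Across the 92 members Pearson's r was 0.53 between arrays 1 and 2, 0.61 between arrays 1 and 3 and 0.23 between arrays 2 and 3. These values describe genes that share the same arrays, and over all features they were 0.46, 0.48 and 0.16.

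**Figure D1:**
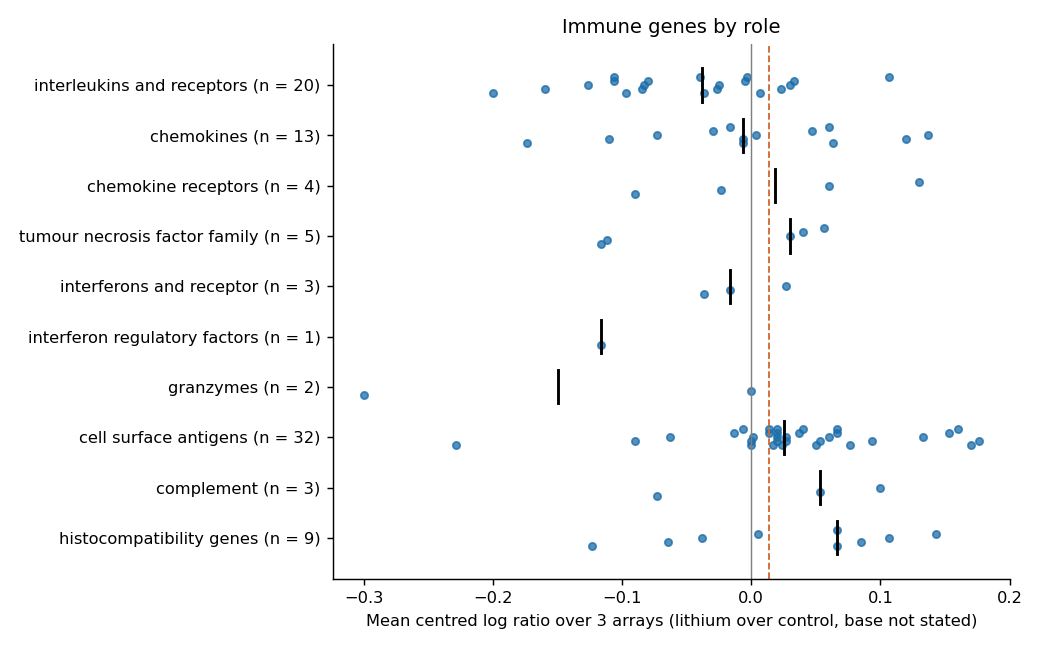
Mean centred log ratio over 3 arrays (x axis, lithium over control, base not stated) of each member with a value on all 3 arrays, by role group, where a point is a gene, the black bar the group's median and the dashed line the median of all features, 0.0133. The 20 interleukin and receptor genes have a median of −0.04 and the 32 cell surface antigens one of 0.03, and single genes reach from −0.30 to 0.18.

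Among interleukins and their receptors, ratios below 0 were more frequent than above. Of 35 such genes 20 were measured on all arrays, 15 with a mean below 0 and 5 above. Their median was −0.04, while 42.7% of all features had a mean below 0. None passed, with adjusted p from 0.169 to 0.976. With ratios as deposited, 16 were below 0 and 4 above, against 2031 of the 3819 features below 0. Without array 2, 17 were below and 3 above, against 1785 features below. Over the 35 genes with values on at least 2 arrays, 28 were below 0 and 7 above, with a median of −0.085. Below 0 in that setting were 2539 of 4930 features.

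The secreted interleukins at the ends of this range were Il3 and Il11. Il3, a growth factor of mast cells and basophils, read −0.25, −0.30 and −0.05 on arrays 1, 2 and 3, a mean of −0.20 ± 0.13 (SD, n = 3, limma adjusted p = 0.169). Array 3 was nearest to 0. Il17b, a member of the interleukin 17 family, read −0.14, −0.02 and −0.32, a mean of −0.16 ± 0.15 (adjusted p = 0.243), and here array 3 was the lowest. The inflammatory cytokine Il1b read −0.04, −0.18 and −0.02 (adjusted p = 0.410), and Il6, an inducer of the acute phase response, read −0.10, −0.16 and 0.01 (adjusted p = 0.395). Neither lay far from 0 on array 3. Il11, a cytokine that signals through the gp130 subunit, read 0.09, 0.06 and 0.17, a mean of 0.11 ± 0.06 (adjusted p = 0.257). It was the only 1 of the 10 secreted interleukin genes measured throughout, the antagonist Il1rn included, that was above 0 on every array, whereas 5 were below 0 on every array.

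Receptor genes of this group that were measured on all arrays had means close to 0. Il1r2, a decoy receptor that binds interleukin 1 without signalling, read −0.12, −0.14 and −0.06, a mean of −0.11 ± 0.04 (SD, n = 3, limma adjusted p = 0.246). Il2rb, a subunit shared by the receptors of interleukins 2 and 15, read −0.20, −0.10 and −0.02 (adjusted p = 0.305). Il11ra1, the binding subunit for Il11, read −0.02, −0.30 and −0.06 (adjusted p = 0.335), so that its mean of −0.13 rested largely on array 2, while its ligand Il11 was above 0 on all arrays. Of the 10 receptors and binding proteins measured throughout, 7 had a mean below 0 and 3 above, within −0.13 and 0.03. Receptors without a value on array 3 spread wider, with means from −0.445 for Il1rl1 to 0.16 for Il12rb1 over arrays 1 and 2.

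Among chemokines, Cxcl12 and Cx3cl1 marked the ends of the range. Cxcl12, the constitutive chemokine of stromal cells that attracts cells carrying Cxcr4, read −0.23, −0.12 and −0.17, a mean of −0.17 ± 0.06 (SD, n = 3). As a linear ratio this is 0.671 if logs are to base 10 and 0.887 if they are to base 2. It was below 0 on all arrays, and its limma adjusted p was 0.137. Cx3cl1, the membrane-bound chemokine fractalkine, read 0.16, 0.23 and 0.02, a mean of 0.14 ± 0.11 (adjusted p = 0.238), with array 3 near 0. Of its receptor Cx3cr1, a marker of resident macrophages, only arrays 2 and 3 had values, −0.02 and −0.01. Ccl5, which attracts T cells and monocytes, read 0.16, 0.12 and 0.08, a mean of 0.12 ± 0.04 (adjusted p = 0.205), and its receptor Ccr1 read 0.11, 0.13 and 0.15, a mean of 0.13 ± 0.02 (adjusted p = 0.176). Both genes were above 0 on every array and varied little. The monocyte attractant Ccl2 read −0.22, −0.03 and −0.08, a mean of −0.11 ± 0.10 (adjusted p = 0.305), and its receptor Ccr2 read −0.03, −0.14 and 0.10. Ccl2 thus lay below 0 throughout but by very unequal amounts, and Ccr2 took both signs. Of 13 chemokines measured throughout, 6 had a mean above 0 and 7 below. The 4 chemokine receptors measured throughout split evenly, from Cxcr5, the homing receptor of follicular B cells, at −0.09 (adjusted p = 0.323) to Ccr1. This split depends on the filter for missing values. Of the 9 receptors with values on at least 2 arrays, 2 had a mean above 0 and 7 below, with a median of −0.09. Below 0 in that setting were 2539 of 4930 features.

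**Figure D2:**
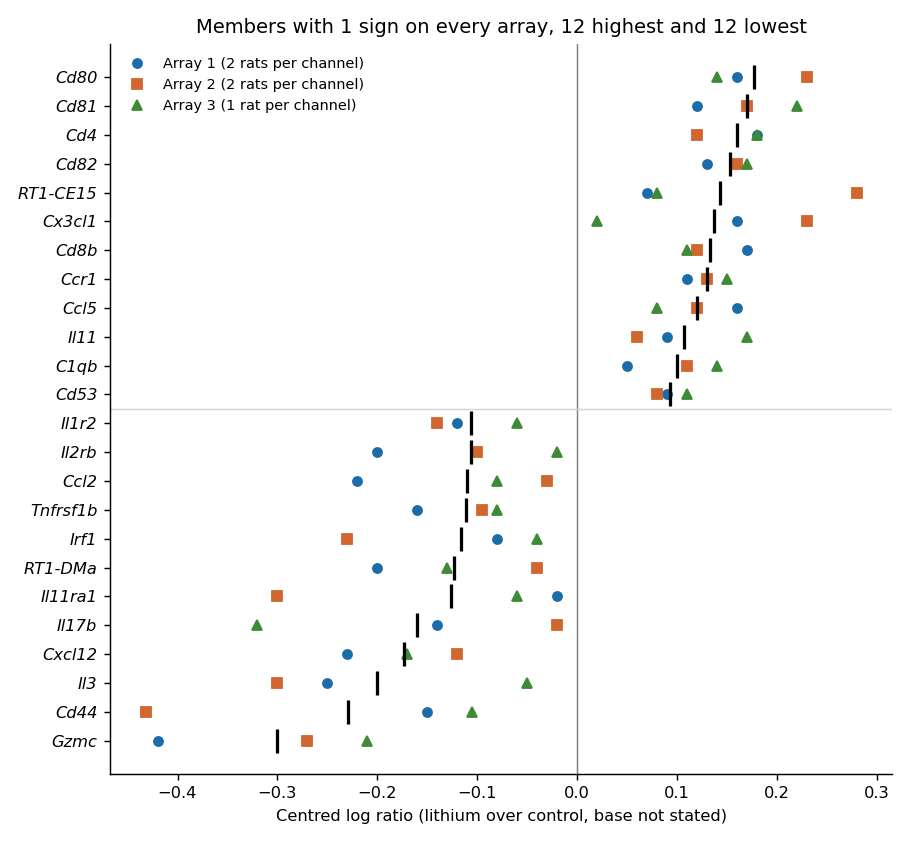
Centred log ratio on each array (x axis, lithium over control, base not stated) of the 12 highest and 12 lowest members that kept 1 sign on every array, where the symbols are the arrays and the black bar is their mean. Cd80 to Cd53 lie above 0 and Il1r2 to Gzmc below it, and no gene among them passed the adjusted threshold.

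The neutrophil-attracting CXC chemokines, textbook targets of the transcription factor NF-kappaB, had no member past the threshold. Promoter stretches of 5 members that carry its motif are shown, because these genes are the classical readouts of that factor. Letters are RefSeq's, build GRCr8, from the window of 250 bases before to 50 after the gene's start, which was found for 104 of the 131 members, and are written in each gene's own direction. Capitals mark the motif, GGG and TTTCC with any 2 bases between them, on either strand.
Cxcl1 (chr14:17479366-17479435, minus strand): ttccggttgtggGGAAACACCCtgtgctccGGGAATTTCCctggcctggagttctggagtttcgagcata
Cxcl2 (chr14:17467270-17467339, minus strand): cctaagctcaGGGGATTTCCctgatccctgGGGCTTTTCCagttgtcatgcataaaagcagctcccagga
Cxcl6 (chr14:17596466-17596535, minus strand): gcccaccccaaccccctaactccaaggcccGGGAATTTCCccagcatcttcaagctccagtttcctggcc
Il6 (chr4:5894604-5894673, minus strand): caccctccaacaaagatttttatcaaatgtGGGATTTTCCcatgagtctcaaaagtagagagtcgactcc
Ccl20 (chr9:91837040-91837109, plus strand): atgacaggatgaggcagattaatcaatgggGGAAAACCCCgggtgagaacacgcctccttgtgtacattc

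This motif was in 11 of 107 member windows (10.3%) and in 512 of all 33469 windows (1.53%). A match is a description of letters and not a site in use. Of the 11 genes that carry it, 6 were measured on all arrays, 4 with a mean below 0 and 2 above. Cxcl1 read −0.10, 0.03 and 0.05 (limma adjusted p = 0.954), and Cxcl2 read −0.03, 0.21 and 0.01 (adjusted p = 0.587). The related Cxcl3 read −0.01, 0.00 and −0.04. These ratios took both signs or stayed at 0, apart from Cxcl2 on array 2. Cxcl6 had values only on arrays 1 and 2, −0.14 and −0.04. Ccl20, which attracts dendritic cells and T cells through its receptor Ccr6, also had only those, 0.35 and −0.04, which differ in sign.

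Irf1, a transcription factor that interferon-gamma induces, was the only interferon regulatory factor found. It read −0.08, −0.23 and −0.04, a mean of −0.12 ± 0.10 (SD, n = 3, limma adjusted p = 0.283), below 0 on every array. Its promoter carries the GAS (gamma-activated site) motif TTCNNNGAA, in capitals below and shown because Irf1 is a standard readout of interferon signalling.
Irf1 (chr10:38417763-38417831, plus strand): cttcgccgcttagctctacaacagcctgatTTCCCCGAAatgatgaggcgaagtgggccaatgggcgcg

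The GAS motif, which reads the same on both strands, was in 9 of 107 member windows (8.41%) and in 8.87% of all windows, and the core of the interferon-stimulated response element, GAAA repeated after any 2 bases, searched on both strands, in 10 member windows (9.35%) and in 3.92% of all. The type I interferon genes Ifnb1 and Ifna5 had means of −0.04 and −0.02, and the receptor gene Ifngr1 one of 0.03, all with adjusted p above that of Irf1. Ifng itself had a value on array 2 alone, −0.75. Cxcl10, an interferon-induced chemokine that carries the response element, read −0.01, −0.08 and 0.07. None of these genes kept 1 sign on all arrays apart from Irf1.

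Among tumour necrosis factor genes, the receptor Tnfrsf1b was the lowest in which all arrays had the same sign, but its 2 probes disagreed. The gene's averages were −0.16, −0.095 and −0.08, a mean of −0.11 ± 0.04 (SD, n = 3, limma adjusted p = 0.230). By probe, the first read −0.25, −0.22 and −0.29, and the second −0.07, 0.03 and 0.13. The values of the first probe lay well below those of the second on each array, so the gene's small SD hides a difference between probes. Tnfrsf1a, the other receptor of tumour necrosis factor, read 0.01, 0.15 and 0.01 (adjusted p = 0.558). Tnfrsf11b, osteoprotegerin, a soluble decoy for Tnfsf11, read −0.16, 0.02 and −0.21 (adjusted p = 0.318), against −0.07, 0.13 and 0.06 for Tnfsf11 itself, and array 2 stood above both others in either gene.

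The granzyme Gzmc had the lowest mean of all members measured throughout. Granzymes are serine proteases stored in the granules of cytotoxic lymphocytes. Gzmc read −0.42, −0.27 and −0.21, a mean of −0.30 ± 0.11 (SD, n = 3) with a 95% interval of −0.42 to −0.18 and a limma adjusted p of 0.0782. As a linear ratio this is 0.501 if logs are to base 10 and 0.812 if they are to base 2. It lay below −0.2 on each array and passed with arrays scaled to the same spread (adjusted p = 0.0174) and with a robust prior (adjusted p = 0.00781). Its mean was −0.24, −0.32 and −0.35 without array 1, 2 and 3, fits of 2 arrays in which no feature passed. The granzyme genes are close relatives in rodents, and a probe may bind RNA of several. Gzmm read −0.05, 0.11 and −0.06, with a mean of 0.00. Gzmk had values of −0.41 and −0.47 on arrays 1 and 2 and none on array 3, and Gzmf had 0.02 and −0.25 there. Of the cytotoxic cell markers outside the family, Nkg7, a granule membrane protein, read 0.05, 0.10 and 0.18 (adjusted p = 0.257), opposite in sign to Gzmc. In the list of natural killer and cytotoxic markers, 5 of 7 measured genes were above 0 on average and 1 below, Gzmc, and their median was 0.06.

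Cell surface antigens were more often above 0 than below, with the highest means among all members. Of 39 genes 32 were measured throughout, 25 with a mean above 0 and 5 below, while 55.7% of all features had a mean above 0. Their median was 0.03. The split depends on the zero and on the filter for missing values. With ratios as deposited, 17 were above and 11 below, against 1726 of the 3819 features above 0. When arrays were centred on the features measured on all 3, 21 were above and 10 below, against 1792 features above. Over the 39 genes with values on at least 2 arrays, 26 were above and 11 below, against 2320 of 4930 features above. None of the 32 passed, with adjusted p from 0.134 upward. Above 0 on every array were 12 of them, and 1, Cd44, was below 0 on every array.

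Cd80, Cd4 and Cd8b, antigens of the contact between antigen-presenting cells and T cells, were above 0 on all arrays. Cd80, a costimulatory ligand on antigen-presenting cells, read 0.16, 0.23 and 0.14, a mean of 0.18 ± 0.05 (SD, n = 3, limma adjusted p = 0.134). The linear ratio is 1.5 for logs to base 10 and 1.13 for logs to base 2. Its 95% interval ran from 0.08 to 0.27. Its partner Cd28 on T cells read 0.04, 0.00 and 0.00, and Cd86, the other ligand of Cd28, had −0.04 and −0.32 on arrays 1 and 2 only. Cd40, also of antigen-presenting cells, had −0.30 on both of these arrays and no value on array 3. The ligand of Cd40, Cd40lg, read 0.01, −0.10 and 0.14. Cd4, the coreceptor of helper T cells, which rat macrophages also carry, read 0.18, 0.12 and 0.18, a mean of 0.16 ± 0.03 (adjusted p = 0.140). Cd8b, a chain of the coreceptor of cytotoxic T cells, read 0.17, 0.12 and 0.11, a mean of 0.13 ± 0.03 (adjusted p = 0.176), and the other chain, Cd8a, read 0.07, 0.00 and 0.08 (adjusted p = 0.564). On array 2 Cd8a was at 0.

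The chains of the T cell receptor complex did not share this direction. Cd3d read −0.04, −0.15 and 0.00 (limma adjusted p = 0.507), Cd3g had −0.05 and −0.06 on arrays 1 and 2, and Cd247 read −0.06, 0.14 and 0.03. The adhesion antigens Cd2 and Cd5 of T cells had means of −0.0067 and 0.0017. Cd4 and Cd8b were the T cell antigens above 0 on every array. In the whole T lymphocyte marker list, 8 of whose genes fit the symbol rule, 7 of 9 measured had a mean above 0 and 2 below, the median was 0.04, and 0 passed. Cd79b, a chain of the B cell receptor complex, read −0.07, 0.00 and −0.20 (adjusted p = 0.388).

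The tetraspanins, 4-pass membrane proteins that organise receptors in the membrane of leukocytes and epithelia, formed a run of means at or above 0 that was picked out after the values were seen. Cd81, found on most cell types, read 0.12, 0.17 and 0.22, a mean of 0.17 ± 0.05 (SD, n = 3, limma adjusted p = 0.139). Cd82 read 0.13, 0.16 and 0.17, a mean of 0.15 ± 0.02 (adjusted p = 0.142), and Cd53, restricted to leukocytes, read 0.09, 0.08 and 0.11, a mean of 0.09 ± 0.02 (adjusted p = 0.276). The arrays gave nearly the same value for Cd82 and for Cd53. Cd37, also a leukocyte tetraspanin, averaged 0.07, Cd63 and Cd151 both averaged 0.02, and Cd9 averaged 0.00. Of these 7, 6 had a mean above 0, while 55.7% of all features did. Single arrays fell below 0, as for Cd9 (−0.05 and −0.02 on arrays 1 and 3) and Cd151 (−0.03 on array 3). With ratios as deposited, without centring, Cd81, Cd82 and Cd53 averaged 0.15, 0.13 and 0.07, and the others were not followed there.

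Cd44, the hyaluronan receptor that activated leukocytes and injured tubules carry, had the second lowest mean among members measured on all arrays, and its 5 probes disagreed. The averages were −0.15, −0.43 and −0.105 on arrays 1, 2 and 3, a mean of −0.23 ± 0.18 (SD, n = 3, limma adjusted p = 0.176). On array 2 the probes read −0.76, −0.63, −0.50, −0.46 and 0.19. Only 2 of the 5 had a value on array 3, −0.11 and −0.10, so the mean mixes different probes across arrays. Over the 2 probes with a value on every array the mean was −0.088 (adjusted p = 0.363), and without array 2 the gene's mean was −0.13, neither of which is second lowest. The probe at 0.19 on array 2 read −0.02 on array 1, where another read −0.44. Cd55, a complement inhibitor on cell surfaces, had 4 probes, of which 3 read between 0.02 and 0.15 on array 2 and 1 read −0.23.

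**Figure D3:**
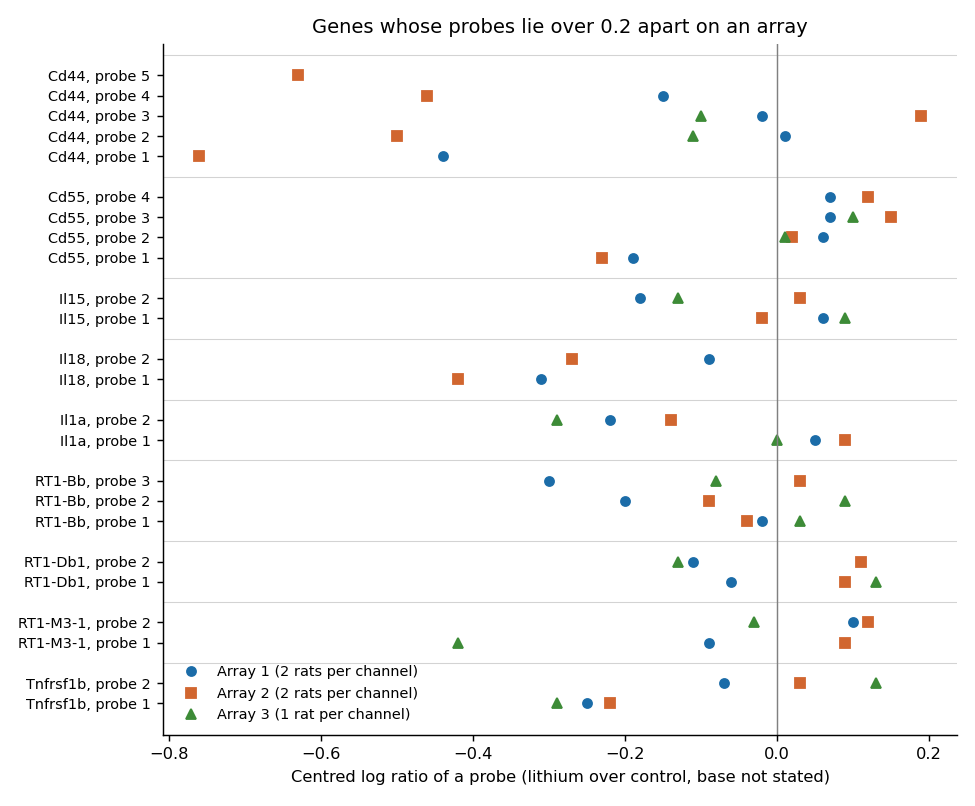
Centred log ratio of each probe (x axis, lithium over control, base not stated) for the 9 genes whose probes lie over 0.2 apart on an array, where the symbols are the arrays and each line of the y axis is a probe. The 2 probes of Il1a take separate ranges, as do those of Tnfrsf1b, while the probes of Cd44 overlap and their spread on array 2 runs from −0.76 to 0.19.

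Of 15 members with more than 1 probe, 9 had probes over 0.2 apart on an array. Il1a, an interleukin 1 released by damaged cells, was among them, although both of its probes are annotated with the same sequence record. The first read 0.05, 0.09 and 0.00 and the second −0.22, −0.14 and −0.29. They did not overlap, so the gene's mean of −0.09 ± 0.06 (SD, n = 3, limma adjusted p = 0.354) lies between both. Il15, which sustains natural killer cells and memory T cells, had probes at 0.06, −0.02 and 0.09 and at −0.18, 0.03 and −0.13. Its probes share 1 sequence record too, as do those of Il18. For members with a single probe such a check is not possible, and 78 of the 92 tested members, Gzmc, Cd80 and Cxcl12 among them, had just 1.

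Complement genes were few. C1qb, a chain of the recognition protein C1q that tissue macrophages make, read 0.05, 0.11 and 0.14, a mean of 0.10 ± 0.05 (SD, n = 3, limma adjusted p = 0.270), above 0 on each array. Cfd, the protease factor D of the alternative pathway, read −0.15, 0.07 and −0.14 (adjusted p = 0.520). C3, the central complement protein, had −0.01 and −0.21 on arrays 1 and 2 and no value on array 3. Outside the symbol rule, 13 complement and acute phase genes were measured, 8 with a mean above 0 and 5 below. Only Lcn2, an iron-siderophore-binding protein of neutrophils and injured tubules, passed among them, at 0.63, 0.36 and 0.60 (adjusted p = 0.0234). C7, a part of the membrane attack complex, read 0.15, 0.18 and 0.12 (adjusted p = 0.15). Lcn2 was thus further from 0 on every array than any complement member.

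Histocompatibility genes took both signs. RT1 is the rat's major histocompatibility complex, whose class I molecules present peptides of the cell's own proteins and whose class II molecules present peptides taken up by antigen-presenting cells. Of 11 genes 9 were measured throughout, 6 with a mean above 0 and 3 below. Their median of 0.07 was 0.01 without array 2, and 0.005 over the 11 with values on at least 2 arrays. RT1-CE15, of class I, read 0.07, 0.28 and 0.08, a mean of 0.14 ± 0.12 (SD, n = 3, limma adjusted p = 0.238), so array 2 carried most of it. The class I genes RT1-M4 and RT1-M5 averaged 0.09 and 0.07, and RT1-M3-1 averaged −0.04 with probes at −0.42 and −0.03 on array 3. B2m, the light chain of all class I molecules and outside the symbol rule, read 0.16, 0.22 and 0.19, a mean of 0.19 ± 0.03 (adjusted p = 0.115), and Psmb9, a subunit of the immunoproteasome, read 0.20, 0.15 and 0.19 (adjusted p = 0.122). Both varied little between arrays. Below 0 on every array in the same list were the endoplasmic reticulum chaperone Canx at −0.21, −0.16 and −0.09 (adjusted p = 0.169) and the lysosomal protease Ctsl at −0.17, −0.08 and −0.19 (adjusted p = 0.176). In the antigen processing list 11 of 14 measured genes were above 0 on average and 3 below. Their median was 0.04 and 0 passed.

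In class II, the partners RT1-DMa and RT1-DMb, which together load peptides onto class II molecules, went opposite ways. RT1-DMa read −0.20, −0.04 and −0.13, a mean of −0.12 ± 0.08 (SD, n = 3, limma adjusted p = 0.238), and RT1-DMb read 0.00, 0.21 and 0.11 (adjusted p = 0.326). The arrays of the first are all below 0 and those of the second at or above it. RT1-Bb averaged −0.06 over 3 probes, RT1-Db1 0.005 over 2, and RT1-DOa 0.07. RT1-DOb had 0.04 and −0.09 on arrays 1 and 2, and RT1-Ha −0.02 and 0.00. Cd74, the invariant chain that guides class II molecules, read −0.01, −0.025 and 0.115. RT1 genes are near-identical copies of each other in places and differ between rat strains, so a probe can bind RNA of several, and the assignment to single genes is uncertain.

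A gap in array 3 limited what could be tested. It had no value for 36 of the 131 members (27.5%), against 22% of all named genes. By probe, 43 of the 152 member probes (28.3%) had none, against 25.6% of all probes. These probes also read lower on the other arrays. Their median was −0.07 on array 1 and −0.285 on array 2, against −0.02 and 0.03 for member probes with a value on array 3. On array 2, 47.6% of them lay under −0.3, against 0.926% of the member probes with a value on array 3. Over all probes these shares were 30.7% and 2.77%. Spot brightness is not known here, and its part in these values was not tested.

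**Figure D4:**
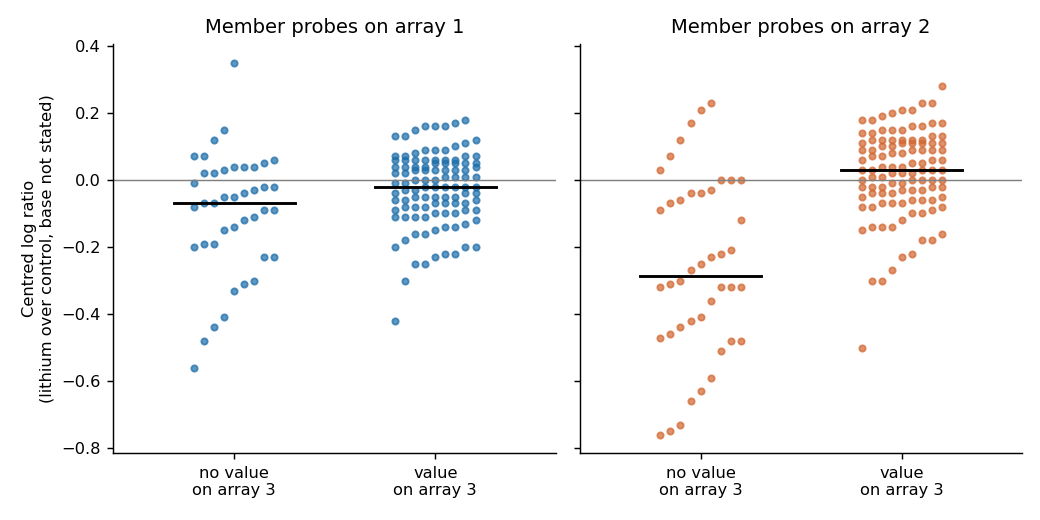
Centred log ratio (y axis, lithium over control, base not stated) of member probes on array 1 and on array 2, split by whether array 3 had a value, where a point is a probe and the black bar the median. On array 2 the probes without a value on array 3 have a median of −0.285 and reach −0.76, and those with one have a median of 0.03.

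Of the 35 members with values on arrays 1 and 2 alone, 20 were below 0 on both and 3 above 0 on both, and 65.2% of the 869 genes with that pattern were below 0 on both. The lowest were Cxcr3, the receptor of the interferon-induced chemokines, at −0.56 and −0.73, Il1rl1, the receptor of interleukin 33, at −0.23 and −0.66, and Gzmk. The highest were Il12rb1, a subunit of the interleukin 12 receptor, at 0.15 and 0.17, Ccl20, and Il6r, the binding subunit for Il6, at 0.04 and 0.23. Il18, an epithelial and macrophage cytokine, had probes at −0.31 and −0.42 and at −0.09 and −0.27. Cxcr4, the receptor of Cxcl12, had 0.07 on array 1 and −0.59 on array 2, so these arrays disagreed. When features on at least 2 arrays were tested, 1 of 130 members passed, Cxcr3, against 0.811% of 4930 features. Of the features called in that fit, 4 were higher and 36 lower.

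Pathway genes outside the symbol rule had means of both signs. Of 17 measured genes of JAK-STAT and cytokine signalling, 13 had a mean above 0 and 4 below, and 0 passed. Stat5b, a transducer of cytokine and hormone receptors, read −0.19, −0.47 and −0.20 (limma adjusted p = 0.118), and the feedback inhibitor Socs3 read −0.21, −0.11 and −0.12 (adjusted p = 0.173). Both were below 0 on all arrays while their list's median was 0.03. Of 7 NF-kappaB and innate sensing genes, 5 were above 0 and 0 passed, with the endotoxin-binding protein Lbp at 0.09 (adjusted p = 0.336) and the inhibitor Nfkbib at 0.08 (adjusted p = 0.370). Of 6 leukocyte adhesion genes 3 were above 0, with the endothelial ligand Icam1 at 0.06 (adjusted p = 0.485). Itgam, an integrin of macrophages and neutrophils, read −0.55, −0.56 and −0.05 (adjusted p = 0.142) and was far below 0 on arrays 1 and 2 only.

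Cell type markers, of which some are members, took both signs in the macrophage list. Of 8 measured macrophage markers 3 had a mean above 0 and 4 below, and the median was −0.0008. Their means ran from −0.39 for Itgam to 0.12 for Fcgr2b. At an unadjusted limma p of 0.05, 2 were higher and 1 lower (37.5%), against 17.2% of all features. The endotoxin coreceptor Cd14 read 0.02, −0.07 and 0.05, and the Fc receptor Fcgr2b 0.18, 0.03 and 0.15 (limma adjusted p = 0.246). Of 9 mast cell markers on the array 4 were measured throughout, with means from 0.03 to 0.08, the mast cell tryptase Tpsb2 among them at 0.07 (adjusted p = 0.383). Of the other 5, Cpa3, a mast cell protease, passed with a negative mean in the fit of features on at least 2 arrays. The neutrophil protein S100a8, the only 1 of its list measured throughout, averaged −0.06 (adjusted p = 0.663). Endothelial and fibroblast lists had medians of 0.02 and 0.03, with Tie1 and Plvap of endothelium at 0.11 and −0.07 and Vim and Col1a2 of fibroblasts at 0.10 and 0.09. Of the 8 fibroblast and pericyte genes 5 had a mean above 0 and 3 below, the lowest of them Pdgfra at −0.14. The defining collecting duct genes Aqp2, Aqp3, Avpr2 and Slc14a2 had values on all arrays, though ratios cannot show their level. Of the 8 principal cell genes all had means above 0, with a median of 0.15. Of these 8, Hsd11b2, the enzyme that inactivates glucocorticoids, alone passed (0.52, 0.57 and 0.37, adjusted p = 0.0234). The 4 limb markers had a median of −0.14, and 7 proximal tubule genes, of another kidney zone, one of 0.07. Slc14a2, at 0.10, was in both the limb and the principal cell list. At an unadjusted limma p of 0.05, all 4 limb markers passed, 3 lower and 1 higher. Of the principal cell genes 7 passed, all higher (87.5%), and of the proximal tubule genes 2 were higher and 1 lower (42.9%), against 17.2% of all features. The part of cell composition in the members' ratios was not tested.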

How the data were processed

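The values are the authors' deposited log ratios for 5760 probes on 3 two-colour arrays, read here as lithium over control; their direction, log base, background correction and normalization are not given in the sources used here, and spot intensities were not used. Probes were named through the platform annotation and gene IDs matched to RefSeq (GRCr8), all 131 members matching. Each array's median was subtracted, the probes of a gene were averaged, and features with a value on all 3 arrays were fitted with limma 3.58.1 (R 4.3.3; lmFit with an intercept, eBayes, Benjamini-Hochberg adjustment over 3819 features), tested on simulated data. Every adjusted p is limma's, two-sided, over arrays. An exact sign test of 3 arrays cannot go below p = 0.25. The labels name different rats for each array but no extraction batches. Arrays carry no counts, so their number limits the precision. Members and lists were chosen with earlier results of these data known. Named were the 12 highest and 12 lowest members of 1 sign, the extremes of each role group and of genes on 2 arrays, genes whose probes differ by over 0.2, classical markers, and 2 genes per list; genes beyond these, among them partners of named ones, were chosen after their values were seen. Alternatives changed the centring, scaling, prior, weights, missing value filter, probes, threshold and arrays.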

Additional observations from a re-analysis of the deposited data

How the results depend on the processing

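No member passed in the fit as reported, nor with ratios as deposited, other centrings, the same probes on all arrays, or any array left out (0 to 0). Array weights called 31 members, and 1 passed with features on at least 2 arrays (Cxcr3), with a robust prior, with arrays scaled to the same spread and at an adjusted p of 0.1 (Gzmc in these 3); 21 passed unadjusted. All features called, 17 as reported, numbered 1055 with array weights, 40 with at least 2 arrays, 94 with a robust prior, 9 with the same probes, 98 when scaled, 49 at an adjusted p of 0.1, 658 unadjusted, and 0 without any 1 array. List genes called, 2 as reported, numbered 38 with array weights, 7 with a robust prior, 8 when scaled, 31 unadjusted and 0 without any 1 array. The members' median of 0.01 was −0.01 without centring, −0.0077 with array weights and −0.005 to 0.0225 with an array left out. Of 90 role group medians under alternatives other than array weights and the robust prior, 6 moved by at least the SD of the group's medians over arrays. With at least 2 arrays these were interleukins (−0.038 to −0.085), chemokine receptors (0.018 to −0.09), complement (0.053 to −0.01) and histocompatibility genes (0.067 to 0.005). Without centring they were interleukins (to −0.058) and cell surface antigens (0.025 to 0.0054). Array weights, left out of this count, shifted group medians too. Among them were the tumour necrosis factor family (0.03 to −0.042) and histocompatibility genes (0.067 to 2.2e-05). The 37 members of 1 sign numbered 47 to 59 with an array left out, where fewer arrays have to agree. Signs were followed for the 47 members measured on all arrays that the naming rules above picked. Other members whose ratios are given, such as Cxcl1, Cd28 and Cd5, were not followed gene by gene, so more signs may turn. Among the 47, the sign turned for Ifngr1 when each print block was centred (−0.0067), an alternative added once the data had been seen. For RT1-Db1 it turned with array weights (−0.063), centring on common features (−0.012), no centring (−0.015) and scaling (−0.0057). With an array left out, means ran from −0.0425 to 0.05 for RT1-Db1, −0.085 to 0.01 for Ifnb1 and −0.11 to 0.055 for RT1-M3-1. Over all 92 members, 50 above and 39 below 0 became 39 and 49 without centring, and 44 and 48 with array weights. The cause of these changes was not tested. The adjusted p of Gzmc ran from 0.000565 with array weights to 0.742 without array 1. Each ratio is already a difference between lithium and control within an array, so the fit is paired by construction and no further replicate block could be fitted.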
